A study of Mus musculus with 6 samples.

Results

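The antioxidant and glutathione enzymes of alveolar macrophages were followed through 35 genes chosen by symbol, all 35 of which were found among the 46078 gene rows of the table. They cover the oxidant sensor and its transcription factor, glutathione supply and transfer, the thioredoxin system, peroxiredoxins, peroxidases, catalase, superoxide dismutases and the pentose phosphate enzymes. All 35 passed the filter on low counts, as did 15147 genes in all. RNA came from alveolar macrophages sorted from the lungs of untreated mice, with 1 polyA library per mouse. In 3 Car4fl/fl-CD11cCre mice both floxed Car4 alleles were combined with a Cre transgene under control of CD11c (Itgax), and 3 Car4fl/fl mice carried the floxed alleles without Cre. These are called Cre and control libraries. CD11c is also expressed outside alveolar macrophages, and no group analysed here carried Cre with unfloxed Car4, so that effects of the transgene and of the deletion cannot be told apart. Neither ages and sexes nor sort gates were stated.

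In an alveolar macrophage, which lives in the oxygen-rich airspace, the protein Keap1 holds the transcription factor Nrf2 (Nfe2l2) for degradation until oxidants or electrophiles modify Keap1. Nrf2 then pairs with small Maf proteins on antioxidant response elements and raises transcription of enzymes that make glutathione, attach it to electrophiles, reduce peroxides and supply NADPH. Superoxide dismutases turn superoxide into hydrogen peroxide, which catalase, glutathione peroxidases and peroxiredoxins remove. NADPH from the pentose phosphate pathway drives glutathione reductase and thioredoxin reductase, which recharge both systems.

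The libraries held 53824475 to 65443314 counts, so that 3 counts corresponded to 0.0465 to 0.0557 CPM (counts scaled to library totals with TMM factors), counting error alone. The targeted gene Car4 was at 40.2, 46.9 and 36.3 CPM in Cre libraries, against 499, 385 and 270.4 CPM in control libraries, and 1 other gene besides Car4 was called by edgeR. All 12 alveolar macrophage markers, Car4 among them, were detected in every library, but several moved with genotype. In edgeR, 3 of the 12 had a higher level and 4 a lower one with an unadjusted p under 0.05, against 6.54% and 6.28% of all tested genes. DESeq2 called 3 higher (Marco, Itgax, Chil3) and 2 lower (Car4, Siglecf), against 2.28% and 1.45% of all tested genes. The counts by edgeR and by DESeq2 include Car4, whose fall the deletion itself brings, and Itgax, the gene under whose control the Cre transgene was placed. Siglecf was at 77.3% of the control mean, Chil3 at 170.3%, and Mrc1, between 2470.3 and 2670.5 CPM in all libraries, at 106.3%.

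All 12 interstitial and monocyte-derived macrophage markers had a log2 fold change above 0, with a median of 2.05. Of these, 10 had an unadjusted p under 0.05 in edgeR, against 6.54% of all tested genes higher at that threshold, and none passed its adjusted test. DESeq2 called 7 higher, against 2.28% of all tested genes, and 7 were higher without overlap between groups, against 8.63%. Arg1 was at 8.17, 72.2 and 192 CPM in Cre libraries, against 0.481, 0.948 and 1.601 CPM in control libraries. Mmp12 was at 23.9, 111.1 and 566 CPM in Cre libraries, against 7.97, 4.86 and 4.84 CPM in control libraries, so that Cre library 1 lay above the controls for both and below the other Cre libraries. The sum of the 12, in which Csf1r, Gpnmb and Spp1 weigh most in control libraries, was 1413, 2436 and 2875 CPM in Cre libraries, against 1416, 1281 and 1224 CPM in control libraries.

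All 10 lymphocyte markers also had a log2 fold change above 0, 6 of them without overlap, against 8.63% of all tested genes. They summed to 17.6, 26.7 and 51.9 CPM in Cre libraries, against 17.55, 32.1 and 21.6 CPM in control libraries. DESeq2 called 1 of the 10 higher, against 2.28% of all tested genes. This was Cd4, at 0.338, 2.77 and 2.47 CPM in Cre libraries, against 0.299, 0.283 and 0.158 CPM in control libraries. Cd4 was at 754.5% of the control mean, whereas the other T cell genes Cd3e, Cd3g, Trac and Cd8a were at 146.4, 144.3, 151.6 and 225.8%. Ighm, at 35.1 CPM, weighed most in the lymphocyte sum of Cre library 3. All 5 tested neutrophil markers of 8 were above 0, with a median log2 fold change of 0.53. Neutrophil sums did not overlap, at 65.5 to 70.8 CPM in Cre libraries, against 52.5 to 58.7 CPM in control libraries, with Ly6g at 0 throughout. Csf3r weighs most in these sums, and its own groups overlapped. It was at 56.95, 38.8 and 50.9 CPM in Cre libraries, against 39.15, 43.7 and 44.6 CPM in control libraries. DESeq2 called none of the 5, against 3.72% of all tested genes. Classical monocyte markers summed to 20.4 to 23.5 CPM in Cre libraries, against 19.6 to 25.2 CPM in control libraries, and dendritic cell markers to 6.52 to 9.64 CPM in Cre libraries, against 7.32 to 9.34 CPM in control libraries. In each of these lists 4 of 6 markers had a log2 fold change above 0, and DESeq2 called 1 lower, against 1.45% of all tested genes. These were Vcan at 45.5% and Clec9a at 56.8% of the control mean, both without overlap. The 8 airway epithelial markers summed to 9.89 to 16.1 CPM in Cre libraries, against 7.60 to 13.7 CPM in control libraries. The 6 erythroid markers summed to 2.79 to 7.86 CPM in Cre libraries, against 2.27 to 15.1 CPM in control libraries, and eosinophil markers to at most 0.13 CPM in a Cre library, against 0.15 CPM in a control library. The part of these markers in the antioxidant values below was not tested. In bulk RNA, fewer cells of a type and less RNA per cell cannot be told apart.

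For most antioxidant transcripts the genotypes lay close together. None of the 35 genes passed edgeR's quasi-likelihood test at an adjusted p of 0.05, against 0.0132% of all tested genes (0.0066% higher and 0.0066% lower), and the smallest adjusted p was 0.146, for the transferase gene Mgst3. At an unadjusted p under 0.05, 2 of the 35 were higher in Cre libraries (Sod2 and Gsr), against 6.54% of all tested genes, and 1 was lower (Mgst3), against 6.28%. DESeq2 called 2 of the 35, against 3.72% of all tested genes. These were Sod2, higher as were 2.28% of all tested genes, and Mgst3, lower as were 1.45%. Without a filter on low counts edgeR called 1 of the 35, Mgst3, against 1.9% of 27536 genes (1.23% higher and 0.665% lower). The groups did not overlap for 5 of the 35, against 17.9% of all tested genes. Sod2 and Gsta3 were higher without overlap, against 8.63% of all tested genes, and Mgst3, Gsto1 and Prdx6 lower, against 9.22%. Log2 fold changes were above 0 for 20 of the 35, against 49.4% of all tested genes, and below 0 for 15, against 50.6%, with a median of 0.022 beside -0.002 over all tested genes. For 27 of the 35 (77.1%) the log2 fold change was smaller than 0.2 in size, as it was for 69.1% of all tested genes. The median standard error of the 35 was 0.081 on the log2 scale.

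**Figure D1:**
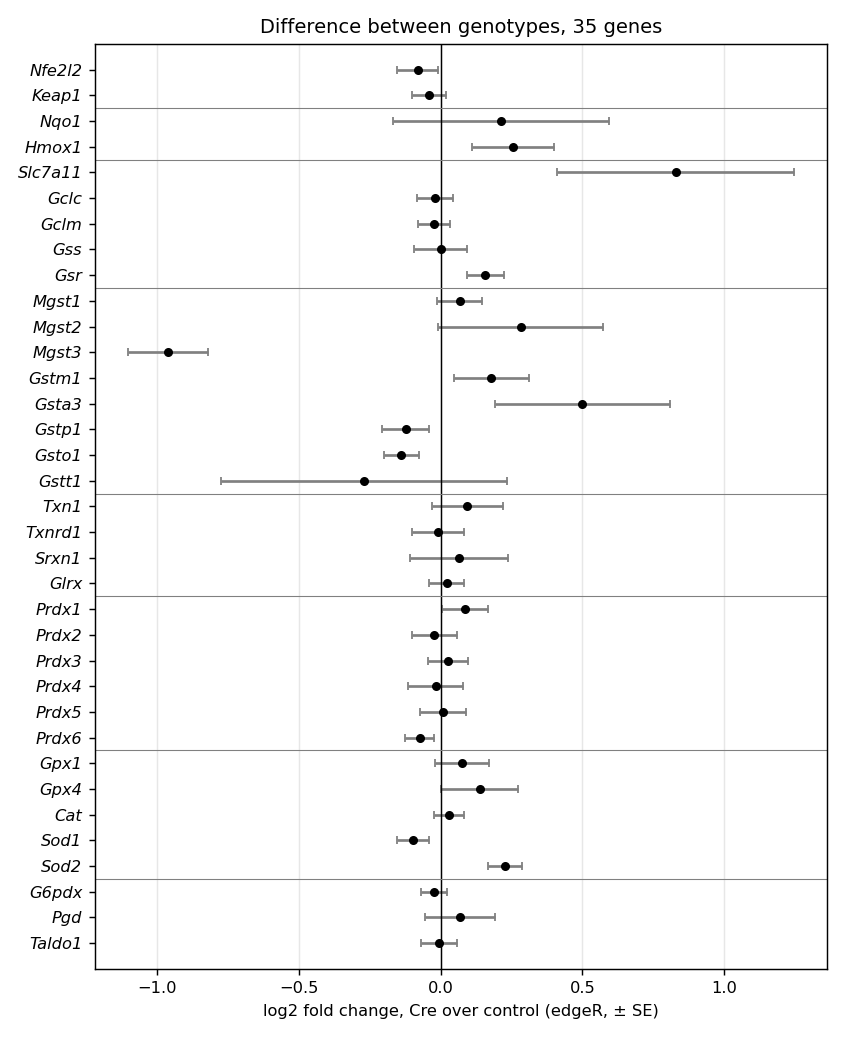
Log2 fold change of each of the 35 genes, Cre over control (points) with its standard error (bars, edgeR), grouped by role from top to bottom. Mgst3 stands at -0.96, and 27 of the 35 lie within 0.2 of zero.

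Promoter sequences are shown for Mgst3 and Sod2, the pair that DESeq2 called, and for Gclm and Prdx1, known Nrf2 targets whose window holds an antioxidant response element core. Each runs 5′ to 3′ from 250 bases before to 50 bases after a transcript start (RefSeq, GRCm38.p6), with matches to TGACNNNGC on either strand in capitals.
Mgst3, chr1:167393792-167394091, minus strand: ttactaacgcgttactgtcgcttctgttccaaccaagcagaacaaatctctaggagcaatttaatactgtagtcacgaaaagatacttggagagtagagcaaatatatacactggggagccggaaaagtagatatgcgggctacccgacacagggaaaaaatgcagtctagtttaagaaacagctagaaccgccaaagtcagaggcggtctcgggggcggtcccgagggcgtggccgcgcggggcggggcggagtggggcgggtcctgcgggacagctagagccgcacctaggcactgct
Sod2, chr17:13007589-13007888, plus strand: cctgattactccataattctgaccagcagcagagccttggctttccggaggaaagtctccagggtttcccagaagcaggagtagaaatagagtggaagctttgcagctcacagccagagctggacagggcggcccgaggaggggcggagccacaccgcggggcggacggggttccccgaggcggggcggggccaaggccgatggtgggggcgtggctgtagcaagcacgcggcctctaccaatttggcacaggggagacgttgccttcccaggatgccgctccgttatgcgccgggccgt
Gclm, chr3:122245307-122245606, plus strand: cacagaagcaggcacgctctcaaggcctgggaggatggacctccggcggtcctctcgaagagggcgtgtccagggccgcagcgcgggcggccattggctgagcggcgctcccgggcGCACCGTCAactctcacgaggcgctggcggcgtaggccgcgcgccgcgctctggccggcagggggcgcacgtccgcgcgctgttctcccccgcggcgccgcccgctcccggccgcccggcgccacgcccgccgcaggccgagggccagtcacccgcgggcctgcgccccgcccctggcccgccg
Prdx1, chr4:116685349-116685648, plus strand: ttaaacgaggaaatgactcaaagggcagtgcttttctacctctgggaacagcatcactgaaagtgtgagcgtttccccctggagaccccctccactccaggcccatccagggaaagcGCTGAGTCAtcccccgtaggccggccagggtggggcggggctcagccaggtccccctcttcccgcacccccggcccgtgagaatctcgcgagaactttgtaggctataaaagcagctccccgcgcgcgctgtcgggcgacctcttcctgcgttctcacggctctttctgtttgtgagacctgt

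Neither the Mgst3 nor the Sod2 window holds the core in these letters. Of the 35 genes 31 had such a window, with 40 windows in all because some genes have several starts. Hmox1, Gclc, Gsr and Prdx6 had no window and were not searched. Sequence outside the windows was not searched for any gene, so a gene without a match here may hold the core elsewhere. The core was found for 10 of these 31 genes (32.3%), namely Nfe2l2, Srxn1, Gclm, Prdx1, Pgd, Mgst1, Txnrd1, Sod1, G6pdx and Gsta3, and in 14% of all 27025 genes with a window. Per window the shares were 25% of 40 and 12.4% of 32851. Not every window of Pgd, Txnrd1 and Mgst1 holds the core. The match is a description of the sequence. None of the 35 genes passed edgeR's test between genotypes, so that test cannot set the 10 apart from the others.

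Levels were set on a per-length scale, as reads per kilobase of exon, scaled as CPM (RPKM), to compare genes with each other. Gpx1, a selenium-dependent glutathione peroxidase of the cytosol, was at the top with 522 ± 50.2 RPKM in Cre libraries and 495 ± 47.2 RPKM in control libraries (SD, n = 3 each). Txn1, the cytosolic thioredoxin that reduces protein disulfides, followed with 424 ± 73.8 RPKM in Cre libraries and 397 ± 39.1 RPKM in control libraries. The transaldolase gene Taldo1 was at 334 ± 13.7 RPKM in Cre libraries and 335 ± 16.8 RPKM in control libraries. At the bottom stood Gstt1, a theta-class transferase, and Gsta3, of the alpha class, with 0.111 and 0.0734 RPKM in Cre libraries, against 0.1345 and 0.0518 RPKM in control libraries. These are under 1 CPM in every library, with as few as 6 counts in one. Of the 34 pairs of neighbours in this order, 25 had overlapping ranges over the 6 libraries. Txn1 and Taldo1, Taldo1 and Prdx1, and Cat and Nfe2l2 were among the neighbours whose ranges did not overlap.

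**Figure D2:**
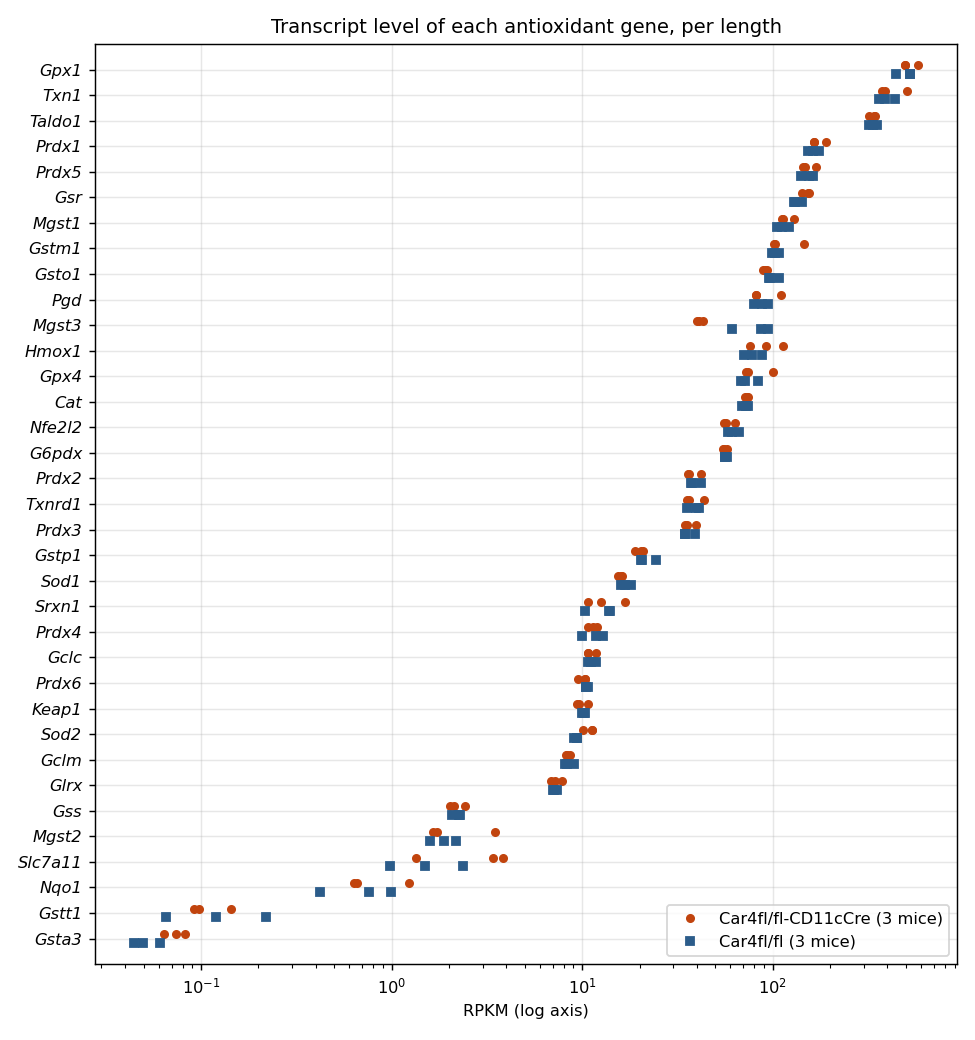
RPKM of each gene (log axis) in each mouse, Car4fl/fl-CD11cCre as circles above Car4fl/fl as squares, ordered by the control mean. Levels span from Gsta3 at under 0.1 to Gpx1 at 441 to 580.2 RPKM, and the groups lie on top of each other for most genes, with Mgst3 apart.

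Neither gene of the sensor pair passed the test. Nfe2l2 was at 216, 211 and 240.0 CPM in Cre libraries, against 232, 222 and 252 CPM in control libraries. Keap1, its cytosolic inhibitor, was at 45.3, 50.1 and 43.9 CPM in Cre libraries, against 48.7, 47.0 and 47.7 CPM in control libraries. The groups overlapped for both genes, with log2 fold changes of -0.08 ± 0.07 (SE) for Nfe2l2 and -0.04 ± 0.06 for Keap1 (edgeR adjusted p 0.72 and 0.841). The per-length ratio of Nfe2l2 to Keap1 was 5.95 ± 0.775 in Cre libraries and 6.08 ± 0.381 in control libraries (SD, n = 3 each).

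Hmox1 and Nqo1 are widely used readouts of Nrf2 activity. Hmox1, the heme oxygenase that breaks heme down to biliverdin, was at 133, 199 and 161 CPM in Cre libraries, against 136, 154 and 123.3 CPM in control libraries. Cre library 1 lay among the controls, and Cre libraries 2 and 3 lay above all of them. The log2 fold change of Hmox1 was 0.26 ± 0.15 (SE; edgeR adjusted p 0.528). Nqo1, a quinone reductase, was near 1 CPM in all 6 libraries, at 0.981, 1.91 and 1.02 CPM in Cre libraries, against 1.18, 1.55 and 0.651 CPM in control libraries. The groups overlapped, with a log2 fold change of 0.21 ± 0.38 (SE; edgeR adjusted p 0.877).

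Among genes of glutathione supply, the cystine importer varied most between libraries. Slc7a11, the light chain of the cystine and glutamate exchanger xCT, was at 18.7, 53.6 and 47.4 CPM in Cre libraries, against 20.9, 32.8 and 13.7 CPM in control libraries. Cre library 1 lay inside the control range and the other 2 above it. The log2 fold change was 0.83 ± 0.42 (SE), the largest positive one of the 35 (edgeR adjusted p 0.467). Slc7a11 was described for its spread after its values were seen. The summed interstitial and monocyte-derived markers were likewise higher in Cre libraries 2 and 3 than in Cre library 1, and their part in the values of Slc7a11 and Hmox1 was not tested.

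Slc3a2, which encodes the heavy chain that carries xCT and other amino acid transporters to the membrane, lay lower in Cre libraries. It was at 303, 310 and 309 CPM in Cre libraries, against 347, 357 and 353 CPM in control libraries. The groups did not overlap, the log2 fold change was -0.20 ± 0.05 (SE), and the adjusted p was 0.173 by edgeR's quasi-likelihood test and 0.00474 by DESeq2. Slc3a2 transcript per length was 22.8 to 63.9 times that of Slc7a11 in Cre libraries, against 42.8 to 102 times in control libraries.

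Gclc and Gclm encode the catalytic and modifier subunits of glutamate-cysteine ligase, the rate-limiting enzyme of glutathione synthesis. Gclm was at 51.6, 54.45 and 52.5 CPM in Cre libraries, against 52.6, 57.1 and 51.4 CPM in control libraries. Its log2 fold change was -0.02 ± 0.06 (SE; edgeR adjusted p 0.916). The per-length ratio of Gclc to Gclm was 1.304, 1.37 and 1.29 in Cre libraries, against 1.33, 1.31 and 1.31 in control libraries. Gss, glutathione synthetase, which adds glycine, was at 12.6, 14.4 and 11.98 CPM in Cre libraries, against 13.5, 13.3 and 12.2 CPM in control libraries. Gclc averaged 41.8 ± 2.51 CPM in Cre libraries and 42.3 ± 2.211 CPM in control libraries (SD, n = 3 each). Gsr, glutathione reductase, which regenerates reduced glutathione with NADPH, was at 419, 426.5 and 391.5 CPM in Cre libraries, against 359, 356 and 394 CPM in control libraries. Cre library 3 lay just under control library 3, so the groups overlapped. The log2 fold change of Gsr was 0.16 ± 0.06 (SE; edgeR adjusted p 0.363).

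The glutathione transferases held the largest difference of the 35 genes. Mgst3, a microsomal transferase with glutathione peroxidase activity, was at 47.2, 44.9 and 44.1 CPM in Cre libraries, against 103, 94.9 and 67.4 CPM in control libraries. The Cre values lay close together and below all 3 controls, whereas control library 3 lay between the Cre libraries and the other controls. Control library 3 was also the lowest control for Car4, but this is not particular to Mgst3. It lay above the control mean for 7 of the 35 genes (20%), against 49.2% of all tested genes. The mean in Cre libraries was 51.4% of the control mean, with a log2 fold change of -0.96 ± 0.14 (SE). The adjusted p was 0.146 by edgeR's quasi-likelihood test and 7.32e-09 by DESeq2, with a range of 7.32e-09 to 0.468 over all alternatives. In edgeR the call depended on single libraries, since the adjusted p was 0.00159 without control replicate 3 and 0.0374 without Cre replicate 1, but 0.462 without control replicate 1 and 0.468 without control replicate 2. In Cre library 1, where Mgst3 was at 47.2 CPM, the interstitial and monocyte-derived markers summed to 1413 CPM, against up to 1416 CPM in control libraries, with a median of 0.42 over the control mean on the log2 scale. That median was 1.73 and 2.76 in Cre libraries 2 and 3, and the part of these markers in Mgst3 was not tested.

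Mgst3 (ENSMUSG00000026688) occupies chr1:167371966-167393841 (GRCm38, minus strand) with 6 merged exon blocks. The nearest tested genes to its left were Aldh9a1 at 191 ± 2.42 CPM in Cre libraries and 192 ± 8.37 CPM in control libraries and Tmco1 at 73.4 ± 0.954 CPM in Cre libraries and 75.3 ± 3.78 CPM in control libraries (SD, n = 3 each). These neighbours lie past the 3′ end of Mgst3, and genes on its promoter side are not shown. The neighbours were looked up after the values of Mgst3 were seen.

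None of the other 7 transferases had an unadjusted p under 0.05. Mgst1, the most abundant microsomal transferase, was at 228, 261 and 225 CPM in Cre libraries, against 245, 226 and 212 CPM in control libraries (log2 fold change 0.07 ± 0.08 SE; edgeR adjusted p 0.803). Mgst2, which can make leukotriene C4, ranged from 6.07 to 12.97 CPM in Cre libraries and from 5.88 to 8.09 CPM in control libraries. Gsto1, an omega-class transferase with thioltransferase activity, was at 189, 179.8 and 184 CPM in Cre libraries, against 218, 194 and 197 CPM in control libraries. The groups of Gsto1 did not overlap, with a log2 fold change of -0.14 ± 0.06 (SE; edgeR adjusted p 0.4). Gstm1, of the mu class, was at 150.2, 214 and 152 CPM in Cre libraries, against 158, 151 and 147 CPM in control libraries, so that Cre library 2 alone stood out. Gstp1, of the pi class, averaged 31.0 ± 1.63 CPM in Cre libraries and 33.7 ± 3.51 CPM in control libraries (SD, n = 3 each). Gsta3 had 19, 23 and 15 counts in Cre libraries, against 16, 13 and 11 counts in control libraries. Its normalised values did not overlap, at 0.321, 0.356 and 0.279 CPM in Cre libraries, against 0.266, 0.216 and 0.194 CPM in control libraries, but counts this low give an SE of 0.31 around its log2 fold change of 0.50 (edgeR adjusted p 0.571). Over the 8 transferases the median log2 fold change was -0.028. Near-identical relatives make the counts of Gstp1 and of the mu class uncertain, and Gstp1 was read from ENSMUSG00000060803 because a second row of that name held 0 counts.

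The makeup of the transferase transcripts was set out as shares of the summed RPKM of these 8 genes. Mgst3 made up 11.5, 9.54 and 11.0% in Cre libraries, against 20.5, 20.6 and 15.9% in control libraries. Mgst1 made up 30.3 ± 0.192% in Cre libraries and 26.9 ± 0.353% in control libraries, and Gsto1 23.5 ± 2.40% in Cre libraries and 23.9 ± 1.216% in control libraries (SD, n = 3 each). Shares add up to the whole, so a lower share of Mgst3 raises the others. The summed RPKM of the family was 374, 429 and 366 in Cre libraries, against 457, 419 and 386 in control libraries, and the groups overlapped.

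**Figure D3:**
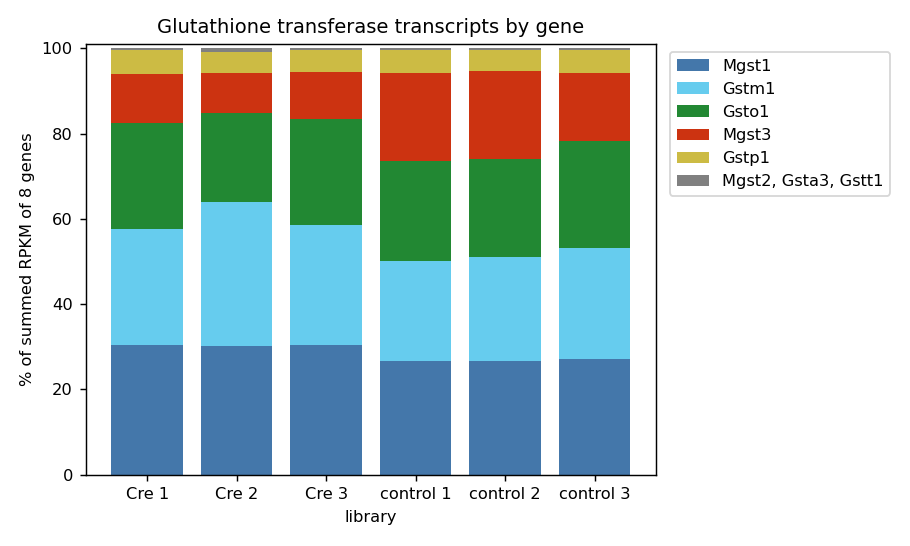
Share (%) of each gene in the summed RPKM of the 8 glutathione transferases, 1 bar per library, Cre libraries left of control libraries. Mgst3 takes 9.54 to 11.5% in Cre libraries, against 15.9 to 20.6% in control libraries.

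In the thioredoxin system, the groups overlapped for all 4 genes. Txn1 was at 392, 534 and 409.8 CPM in Cre libraries, against 462, 409 and 381 CPM in control libraries. Cre library 2 was the highest of the 6 and the other Cre libraries lay among the controls. Its log2 fold change was 0.09 ± 0.13 (SE; edgeR adjusted p 0.827). Txnrd1, the selenoprotein thioredoxin reductase of the cytosol, was at 252, 309 and 256 CPM in Cre libraries, against 279, 291 and 253 CPM in control libraries (log2 fold change -0.01 ± 0.09 SE; edgeR adjusted p 0.98). Srxn1, sulfiredoxin, which rescues overoxidised peroxiredoxins, ranged from 30.3 to 47.2 CPM in Cre libraries and from 29.3 to 39.5 CPM in control libraries. Glrx, glutaredoxin, which removes glutathione from proteins, averaged 40.0 ± 2.85 CPM in Cre libraries and 39.4 ± 0.916 CPM in control libraries (SD, n = 3 each).

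The 6 peroxiredoxins are thiol peroxidases, and none of them had an unadjusted p under 0.05. Prdx1, a cytosolic member recharged by thioredoxin, was at 498, 580.1 and 502 CPM in Cre libraries, against 532, 492 and 464 CPM in control libraries (log2 fold change 0.09 ± 0.08 SE; edgeR adjusted p 0.74). Prdx5, found in mitochondria, peroxisomes and cytosol, was at 315, 361 and 308 CPM in Cre libraries, against 346, 300.3 and 332 CPM in control libraries (log2 fold change 0.008 ± 0.08 SE; edgeR adjusted p 0.98). For both, the groups overlapped. Prdx1 made up 40.9 ± 0.262% of the family's summed RPKM in Cre libraries and 39.5 ± 1.36% in control libraries, and Prdx5 36.3 ± 0.376% in Cre libraries and 37.0 ± 1.66% in control libraries (SD, n = 3 each). Prdx6, the 1-cysteine member that uses glutathione and is abundant in alveolar epithelium, was at 45.4, 49.5 and 49.5 CPM in Cre libraries, against 51.7, 50.3 and 50.02 CPM in control libraries. Its groups did not overlap, by a margin of under 1 CPM, with a log2 fold change of -0.07 ± 0.05 (SE; edgeR adjusted p 0.63). The 8 alveolar epithelial markers summed to 145, 82.9 and 95.5 CPM in Cre libraries, against 92.9, 82.4 and 100.9 CPM in control libraries. Their median over the control mean was 0.674, -0.237 and 0.075 on the log2 scale in Cre libraries 1, 2 and 3, so that Cre library 1 alone stood out. Of these 8, 7 had a log2 fold change above 0, against 49.4% of all tested genes. The other, Ager, was lower without overlap, as were 9.22% of all tested genes, at 74.56% of the control mean. The part of alveolar epithelial RNA in Prdx6 was not tested. Prdx2, Prdx3 (mitochondrial) and Prdx4 (endoplasmic reticulum) had log2 fold changes between -0.02 and 0.03.

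Among the dismutases, catalase and glutathione peroxidases, the groups of Sod2 did not overlap and those of the other 4 genes did. Sod2, the manganese superoxide dismutase of mitochondria and an NF-kB target, was at 100.5, 113 and 112 CPM in Cre libraries, against 94.3, 90.5 and 94.1 CPM in control libraries. All 3 Cre values lay above the controls, Cre library 1 by the least. Its log2 fold change of 0.23 ± 0.06 (SE) had adjusted p-values of 0.189 by edgeR's quasi-likelihood test, 0.0377 by DESeq2, and between 0.0377 and 0.469 over the alternatives. The summed interstitial and monocyte-derived markers were also lowest in Cre library 1 among the Cre libraries, and their part in Sod2 was not tested. Sod1, the copper and zinc dismutase of the cytosol, averaged 62.8 ± 1.69 CPM in Cre libraries and 67.1 ± 3.85 CPM in control libraries. The per-length ratio of Sod2 to Sod1 was 0.622, 0.708 and 0.733 in Cre libraries, against 0.524, 0.541 and 0.585 in control libraries, without overlap.

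Gpx1 was at 711, 836 and 711 CPM in Cre libraries, against 753, 635 and 753 CPM in control libraries (log2 fold change 0.08 ± 0.10 SE; edgeR adjusted p 0.811). Gpx4, the peroxidase that reduces lipid hydroperoxides and restrains ferroptosis, was at 128, 173 and 124 CPM in Cre libraries, against 145, 118 and 124 CPM in control libraries, with Cre library 2 above the rest. Cat, peroxisomal catalase, was at 192, 195 and 186 CPM in Cre libraries, against 193, 189 and 179.6 CPM in control libraries, and its log2 fold change of 0.03 ± 0.05 (SE) had an adjusted p of 0.877 (edgeR quasi-likelihood).

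The pentose phosphate enzymes supply the NADPH. Taldo1, which interconverts sugar phosphates, was at 734, 748 and 691 CPM in Cre libraries, against 765, 692 and 725 CPM in control libraries (log2 fold change -0.006 ± 0.06 SE; edgeR adjusted p 0.983). Pgd, 6-phosphogluconate dehydrogenase, was at 529, 713 and 527 CPM in Cre libraries, against 566, 516 and 606 CPM in control libraries, with Cre library 2 above the other 5 (log2 fold change 0.07 ± 0.12 SE; edgeR adjusted p 0.882). G6pdx, the X-linked glucose-6-phosphate dehydrogenase that starts the pathway, averaged 172 ± 4.18 CPM in Cre libraries and 175 ± 2.70 CPM in control libraries (SD, n = 3 each).

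**Figure D4:**
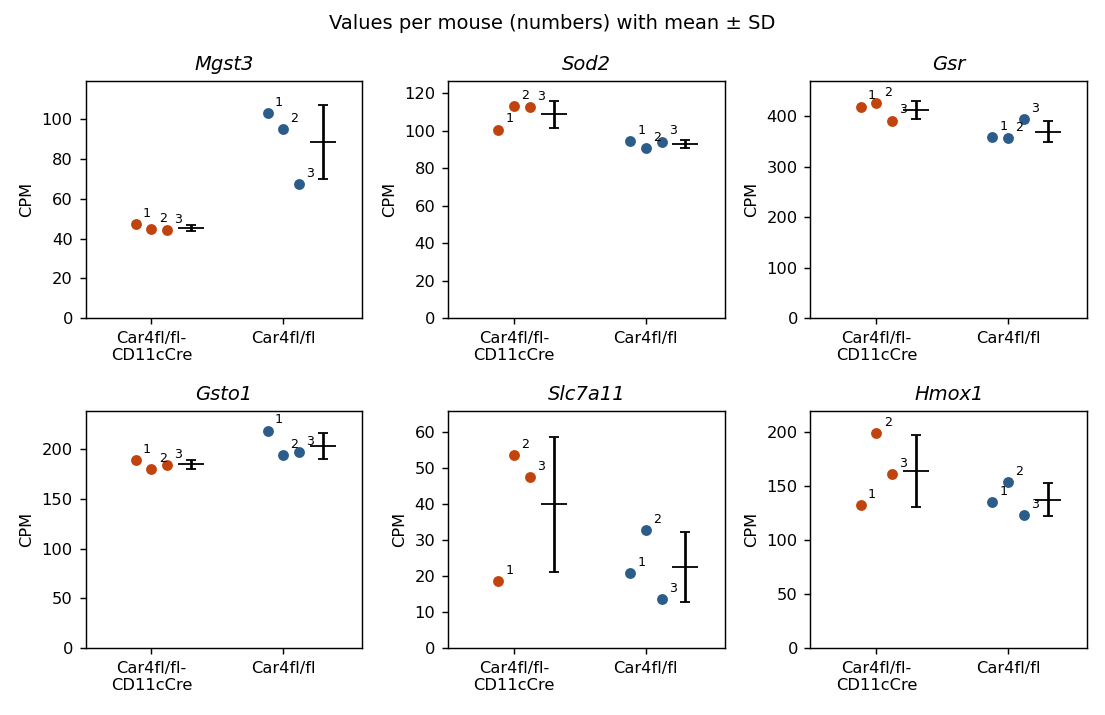
CPM of Mgst3, Sod2, Gsr, Gsto1, Slc7a11 and Hmox1 in each mouse (points, numbered by replicate), Car4fl/fl-CD11cCre left of Car4fl/fl, with the mean and SD of 3 (bars). Mgst3 is at 44.1 to 47.2 CPM in Cre libraries, against 67.4 to 103 CPM in control libraries, and Slc7a11 and Hmox1 overlap through Cre library 1.

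Many of these genes were highest in the same Cre library. Cre library 2 was the highest of the 3 Cre libraries for 30 of the 35 genes (85.7%), against 37.1% of all tested genes, and the highest of all 6 for 23 (65.7%), against 21.2%. Scaled by library size alone it was the highest of 6 for 20 of the 35 (57.1%), against 18.4% of all tested genes. The median of the 35 genes over the control mean was 0.14 on the log2 scale in Cre library 2, against -0.05 in both Cre libraries 1 and 3, while the median over all tested genes was within 0.01 of zero in each. Control library 1 was likewise the highest control for 24 of the 35 (68.6%), against 36.7% of all tested genes. By role group, the median in Cre library 2 was 0.57 for Nqo1 and Hmox1, 0.27 for thioredoxin and glutaredoxin genes, 0.23 for peroxidases, catalase and dismutases, 0.14 for glutathione supply, 0.13 for peroxiredoxins, 0.07 for transferases, 0.04 for pentose phosphate enzymes and -0.04 for the sensor pair. The pattern was not particular to the 35 genes. Among the further pathway genes listed below, the oxidant sources had a median of 0.226 in Cre library 2, against -0.073 and -0.056 in Cre libraries 1 and 3. In Cre library 2 the medians of the other further lists lay between -0.046 and 0.079, and that of all tested further genes was 0.030. Cre library 2 had the most counts of the 6, and its alveolar epithelial markers summed to 82.9 CPM, the lowest of the Cre libraries. Its interstitial and monocyte-derived markers lay between those of Cre libraries 1 and 3, and the part of these measures in the pattern was not tested. Without Cre replicate 2 the median log2 fold change of the 35 was -0.06, and none of them passed edgeR.

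**Figure D5:**
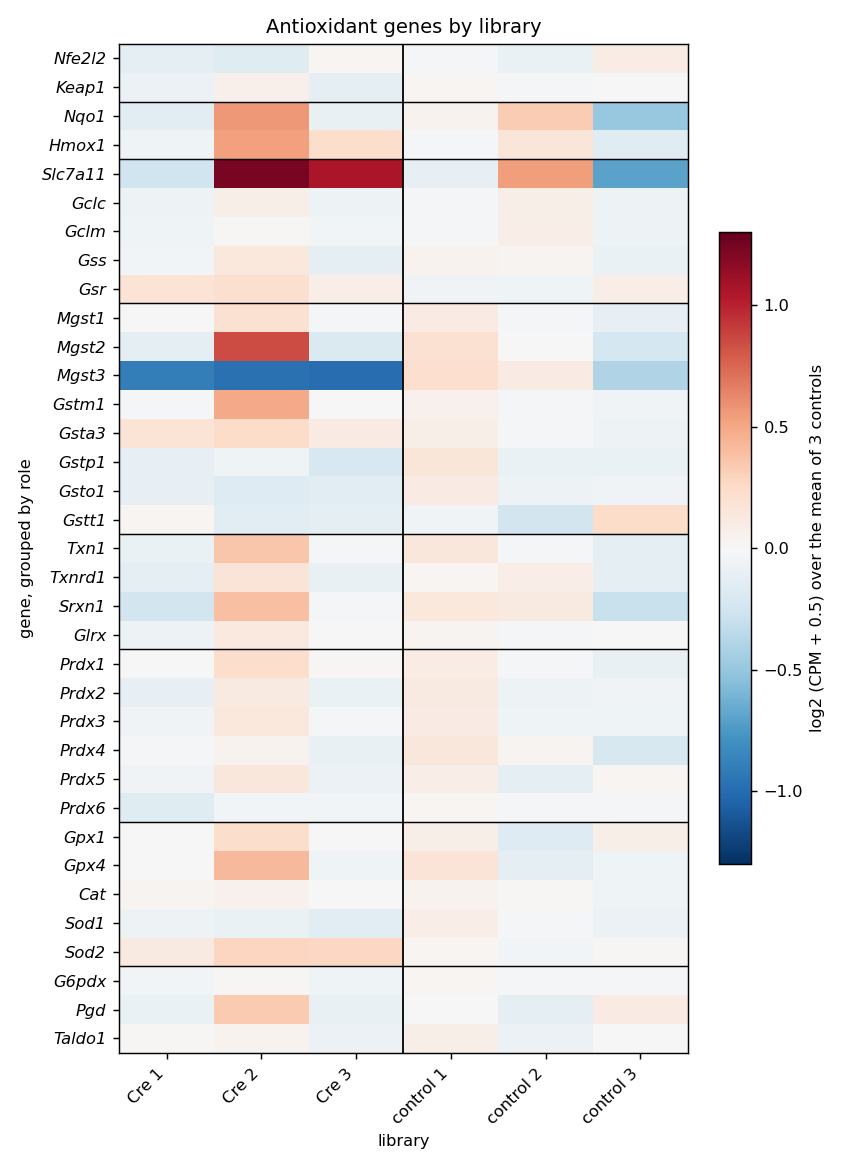
Log2 of CPM + 0.5 over the mean of 3 controls for each gene (rows, grouped by role) in each library (columns, Cre left of control). Mgst3 is low in all 3 Cre libraries, Slc7a11 is high in Cre libraries 2 and 3, and Cre library 2 is the highest of the 6 for 23 of the 35 genes.

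Around these 35 genes, 120 further genes of the same pathways were listed, of which 102 were tested. None passed edgeR over all genes. At an unadjusted p under 0.05, 10 were higher and 8 lower in Cre libraries (edgeR), against 6.54% and 6.28% of all tested genes. DESeq2 called 2 higher and 5 lower, against 2.28% and 1.45% of all tested genes, and the median log2 fold change was -0.011. Of the 14 tested further glutathione transferases and their membrane relatives, DESeq2 called 2, both higher, as were 2.28% of all tested genes. Most of the list lay the other way, with 10 of the 14 below 0, against 50.6% of all tested genes, and a median log2 fold change of -0.072. At an unadjusted p under 0.05 in edgeR, 3 were higher and 2 lower, against 6.54% and 6.28%. Hpgds, the glutathione-dependent prostaglandin D2 synthase, was at 12.4, 14.15 and 12.3 CPM in Cre libraries, against 5.13, 6.38 and 9.98 CPM in control libraries, without overlap (log2 fold change 0.855 ± 0.22 SE, adjusted p 0.185 by edgeR's quasi-likelihood test and 0.00373 by DESeq2). Ptges, the microsomal prostaglandin E synthase, was at 16.97, 29.4 and 18.7 CPM in Cre libraries, against 11.8, 11.3 and 17.4 CPM in control libraries, with overlap (adjusted p 0.29 by edgeR and 0.0403 by DESeq2). Alox5ap and Ltc4s, of leukotriene synthesis and from the same membrane family as Mgst3, had log2 fold changes of -0.16 ± 0.05 and -0.03 ± 0.08 (SE), with edgeR adjusted p of 0.264 and 0.931.

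Of the 23 tested further Nrf2 pathway genes DESeq2 called 2, both lower, as were 1.45% of all tested genes. Maff, a small Maf partner of Nrf2, was at 133, 116 and 121 CPM in Cre libraries, against 160, 150.5 and 141 CPM in control libraries. Trim16 was at 15.2, 15.9 and 16.1 CPM in Cre libraries, against 20.1, 19.6 and 18.5 CPM in control libraries. Neither gene's groups overlapped, and the adjusted p were 0.173 and 0.159 by edgeR and 0.0145 and 0.0258 by DESeq2. The ferritin genes Fth1 and Ftl1, which store iron, were the most abundant and had log2 fold changes of 0.08 and 0.05. Of the 8 tested further genes of glutathione metabolism DESeq2 called Slc3a2 and Oplah lower, as it did 1.45% of all tested genes. Slc3a2 and Abcc1, an exporter of glutathione conjugates, were the most abundant of these. Oplah, which returns 5-oxoproline to glutamate, was at 25.1, 24.1 and 28.9 CPM in Cre libraries, against 32.5, 34.6 and 31.1 CPM in control libraries (adjusted p 0.174 by edgeR and 0.026 by DESeq2).

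Of the 17 selenoproteins and selenium insertion genes, all tested, DESeq2 called Selenow (Sepw1 in the table) lower, against 1.45% of all tested genes. This small selenoprotein was at 50.3, 52.1 and 46.7 CPM in Cre libraries, against 74.8, 68.4 and 55.5 CPM in control libraries (log2 fold change -0.41 ± 0.10 SE, adjusted p 0.185 by edgeR and 0.0118 by DESeq2). Control library 3 was its lowest control, as for Mgst3 and for others of the 35 genes such as Hmox1 and Txn1. The abundant Selenop and Selenot had log2 fold changes of -0.06 and -0.03. Of the 16 thioredoxin-fold reductases, 11 NADPH supply genes, 5 further peroxidases and dismutases, and 8 oxidant sources that were tested, DESeq2 called none, against 3.72% of all tested genes. At an unadjusted p under 0.05 in edgeR, 1, 2, 1 and 1 of them were higher, against 6.54% of all tested genes, and none lower, against 6.28%. The most abundant of these were Txnip and Msrb1, Tkt and Idh1, Park7 and Ccs, and Cybb and Cyba. Cybb, the catalytic subunit of the phagocyte NADPH oxidase, was at 2181, 2431 and 2275 CPM in Cre libraries, against 2485, 2352 and 2105 CPM in control libraries, with overlap.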

How the data were processed

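Alveolar macrophages from 3 Car4fl/fl-CD11cCre and 3 Car4fl/fl mice gave 1 polyA library each. The values that the authors deposited are raw read counts of each gene. Tools named in the submitters' processing notes include STAR 2.6.1, featureCounts 1.6.4, cutadapt 2.5 and GRCm38 as build. The strand setting was not stated. For 6 of the 35 genes (Keap1, Gclm, Gss, Prdx2, Prdx5, G6pdx) exons overlap another gene, and without strand such reads cannot be told apart. Columns were matched to mice by library name.

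Genotypes were compared by edgeR 4.0.16 (R 4.3.3) using filterByExpr (minimum count 10), TMM factors, glmQLFit and glmQLFTest, two-sided, without covariate, with Benjamini-Hochberg adjustment over 15147 genes and a threshold of 0.05. Standard errors were obtained from the fold change and its F statistic. RPKM used merged exons of GENCODE M21, which held 45229 of 46078 identifiers. Of the listed genes 12 were matched by identifier because the table has older symbols. The code was tested on simulated data. Libraries within groups differed by more than sampling noise (chi-square per degree of freedom 19.6 to 51.4). P-values measure the spread between these mice.

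Values per library are given for members with an unadjusted p under 0.05, without overlap between groups, or among the 2 most abundant of their role group; others were added after their values were seen. Of related lists, genes with an unadjusted p under 0.05 that DESeq2 1.42.0 also called (at most 4) and the 2 most abundant are named. The members and lists were chosen with earlier results of these data known. The comparison was repeated with DESeq2, limma-voom (limma 3.58.1), robust dispersions, a replicate block, scaling by RLE, by upper quartile or by total, no filter, a filter of 5 CPM in 3 libraries, and each library left out. Figures were drawn with matplotlib 3.10.9.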

Additional observations from a re-analysis of the deposited data

How the results depend on the processing

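With 3 mice a group, edgeR's calls depended on the setting. The count of antioxidant genes called was 2 by DESeq2 (Mgst3, Sod2), 1 without a filter on low counts (Mgst3), 0 under the other scalings, limma-voom, robust dispersions and the stricter filter, and 0 to 1 with a library left out (Mgst3, without control replicate 3 or without Cre replicate 1). At an unadjusted p under 0.05 the number higher was 4 without a filter and 1 to 3 with a library left out. The number lower was 2 by DESeq2, library-size scaling, upper quartile scaling and the stricter filter, and 1 to 2 with a library left out. The share of all genes at this unadjusted threshold is given for the main fit only, so these counts have no matching share to be read against. The median log2 fold change of the 8 transferases was -0.133 to 0.081 and that of all 35 genes -0.055 to 0.053 with a library left out, so neither median has a direction. Over all genes edgeR called 1 higher and 1 lower, DESeq2 345 and 219, edgeR without a filter 340 and 183, without Cre replicate 1 249 and 37, without control replicate 3 15 and 52, and without Cre replicate 2 8 and 1. The cause was not tested. With a replicate block the counts were 8 higher and 2 lower over all genes and 0 of the 35. Deviations of same-numbered libraries correlated at -0.19 to 0.04. Such correlations cannot show whether same-numbered mice were littermates or were handled together.

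Small differences turned sign when a library was left out, with log2 fold changes of -0.17 to 0.51 for Nqo1, -0.058 to 0.023 for Gclm, -0.004 to 0.12 for Mgst1, -0.059 to 0.17 for Txn1, -0.11 to 0.037 for Txnrd1, -0.066 to 0.053 for Prdx5, -0.007 to 0.12 for Gpx1, -0.005 to 0.049 for Cat, -0.092 to 0.14 for Pgd and -0.042 to 0.031 for Taldo1. Taldo1 was also at 0.002 under the stricter filter. Mgst3 stayed between -1.13 and -0.84 and Sod2 between 0.195 and 0.27 with a library left out. Gsta3, Gstt1 and Nqo1 are limited by depth, at 2 CPM or less in every library.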
